A study of Mus musculus with 32 samples.

Results

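Non-annotated stem transcripts (NASTs) are RNAs of pluripotent cells that standard gene annotations lack. The RNA biotype given in the files was NAST for 242 of the 17784 transcripts listed, and all 242 were taken as members. Together they held 7195 interactions over the 15 libraries. RADICL-seq ligates RNA to nearby DNA in fixed nuclei, and an interaction is a sequenced molecule that joins a DNA tag to an RNA tag. The files list interactions only for a transcript and a 25-kb DNA bin (together a pair) that passed the authors' test on pooled replicates. The 6 groups came from R08, a male mouse embryonic stem cell line (mESC), and from Oli-neu, an immortalised mouse oligodendrocyte progenitor line (mOPC), so that each cell type was 1 line. Cells of mESC 1FA (3 libraries) and mOPC 1FA (3 libraries) were fixed with 1% formaldehyde and received no other treatment. Cells of mESC 2FA (3 libraries) were fixed with 2% formaldehyde. Cells of mESC ActD4 (2 libraries) received 5 µg/ml actinomycin D, an inhibitor of transcription, for 4 hours and were then fixed at 1%. In mESC NPM and mOPC NPM (2 libraries each, 1% formaldehyde), proteins were digested and crosslinks reversed before RNA ligation, which leaves contacts not mediated by protein. Per the study's methods, replicates were batches of cells at different passages.

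NASTs were first catalogued by sequencing the capped 5′ ends of nuclear RNA in stem cells. Many of them start in long terminal repeats (LTRs), the promoter ends of endogenous retroviruses, some of which are active in pluripotent cells and silenced by DNA and histone methylation in other cells. Others arise antisense to genes, opposite to gene promoters, or downstream of genes.

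The number of listed interactions ranged from 251802 to 2832717 per library and was lowest in the mESC ActD4 and mESC NPM libraries. A group's weakest NAST pair held 7 interactions, or 8 in mOPC NPM, so a NAST listed at 0 may still have been captured below the threshold. Replicates of a group share 1 list of pairs, and their spread understates that of independently called libraries. Each line carried its own markers. Summed over 15 stem cell markers, 2647 to 3245 interactions per 1000000 were listed in mESC 1FA and 1.81 to 3.00 in mOPC 1FA. For 15 oligodendrocyte lineage markers the values were 332 to 367 and 12768 to 14346. Fewer transcribing cells and less RNA per cell cannot be told apart in these bulk libraries.

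The sequences around the most frequent RNA tags are shown for the 4 NASTs with most LTR tags among the named ones and after actinomycin D (NAST_5287 was chosen after its values were seen), and for 4 of the most captured NASTs. All are 81 bases of GRCm38 on the RNA strand. In the first 4, capitals mark bases of the annotated LTR repeat, which was ORR1D2 in NAST_2170 (chr2:71349054-71349134, plus strand), MLT1A0 in NAST_1180 (chr9:40235793-40235873, minus strand), RLTR16C-MM in NAST_2169 (chr2:71348161-71348241, plus strand) and ORR1A2-int in NAST_5287 (chr15:88709311-88709391, plus strand). In the last 4, capitals mark the 27 bases around the most frequent tag of NAST_2171 (chr2:71350379-71350459, plus strand), NAST_3202 (chr13:97498313-97498393, plus strand), NAST_205 (chr7:107211604-107211684, plus strand) and NAST_639 (chr10:23784264-23784344, minus strand).
NAST_2170: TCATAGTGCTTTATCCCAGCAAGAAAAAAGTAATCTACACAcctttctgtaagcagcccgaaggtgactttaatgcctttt
NAST_1180: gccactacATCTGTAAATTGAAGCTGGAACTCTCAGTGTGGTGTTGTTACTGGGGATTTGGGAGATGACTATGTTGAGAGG
NAST_2169: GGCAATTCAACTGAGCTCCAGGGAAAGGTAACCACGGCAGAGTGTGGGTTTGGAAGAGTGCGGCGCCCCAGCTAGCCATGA
NAST_5287: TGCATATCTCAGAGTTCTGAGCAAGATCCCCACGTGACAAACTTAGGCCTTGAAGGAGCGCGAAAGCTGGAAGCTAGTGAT
NAST_2171: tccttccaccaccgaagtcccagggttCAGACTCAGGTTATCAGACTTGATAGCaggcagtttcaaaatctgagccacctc
NAST_3202: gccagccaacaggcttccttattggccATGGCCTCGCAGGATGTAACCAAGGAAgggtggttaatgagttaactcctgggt
NAST_205: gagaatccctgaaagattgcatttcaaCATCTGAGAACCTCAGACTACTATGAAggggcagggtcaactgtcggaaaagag
NAST_639: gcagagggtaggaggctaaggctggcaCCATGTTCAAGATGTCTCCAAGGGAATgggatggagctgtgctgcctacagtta
In NAST_2170 the boundary between repeat and unique sequence lies at the most frequent tag, which alone gave 45 of its 79 interactions. The windows of NAST_2169 and NAST_5287 lie wholly inside a repeat, and none of the last 4 windows was chosen for a repeat.

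The tags of a NAST spanned a short stretch, and most NASTs contacted a single bin. This span lies within a given model and is not the length of the transcript. The RNA tags of a NAST spanned 86 to 1149 bases (median 841), and every tag was assigned to an exon of its model. Per NAST, 7 to 346 interactions were listed (median 12), and 13 NASTs had at least 100. The 10 most captured NASTs held 28.6% of all NAST interactions. A single bin was contacted by 185 of the 242 NASTs (76.4%), and no NAST contacted more than 12. NASTs lay on 20 chromosomes, 130 on the plus and 112 on the minus strand. Merging those on 1 strand within 10 kb gave 213 loci, of which 22 held 51 of the NASTs, and neighbours at such a locus need not be independent transcripts.

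Positions were taken relative to genes of GENCODE M21, another release than the M14 that the authors used to annotate transcripts. By these positions, 91 NASTs (37.6%) had no gene near them by the rules used. Another 62 were antisense inside a gene, and 55 lay within 10 kb downstream of a gene on its strand. A further 26 lay on the opposite strand within 2 kb of a protein-coding start, and 8 overlapped a gene on its strand. The downstream NASTs were 22.7% of the NASTs but held 32.2% of the interactions. The NASTs opposite a promoter held 4.81%.

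NAST capture was far higher in stem cells, the cells in which NASTs were catalogued. The choice of members thus favoured mESC, so the difference between the lines supports nothing by itself. In mESC 1FA the libraries held 848, 920 and 939 NAST interactions, and in mOPC 1FA 134, 109 and 122. NASTs made up 0.0342% ± 0.0031 (SD, n = 3) of listed interactions in mESC 1FA and 0.00578% ± 0.00053 (n = 3) in mOPC 1FA, and every mESC 1FA library lay above every mOPC 1FA library. The mESC 2FA libraries held 866, 949 and 1249 (0.0450% ± 0.0057, n = 3), and overlapped with mESC 1FA in number, although each lay above the mESC 1FA library of the same replicate number. In share of listed interactions these groups did not overlap, at 0.0386% to 0.0497% in mESC 2FA against 0.0318% to 0.0377%, nor in number after thinning to equal pooled numbers, where mESC 1FA held 740, 793 and 801. The mESC NPM libraries held 235 and 391 (0.0591% ± 0.0072, n = 2), a higher share than in the other groups that fell to 0.0124%, below the 0.0296% of mESC 1FA, when contacts within 1 kb were left out, and the mOPC NPM libraries held 137 and 162 (0.0122% ± 0.0020, n = 2). The mESC ActD4 libraries held 82 and 52 (0.0201% ± 0.00076, n = 2). These shares sum over the members and were not tested.

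**Figure D1:**
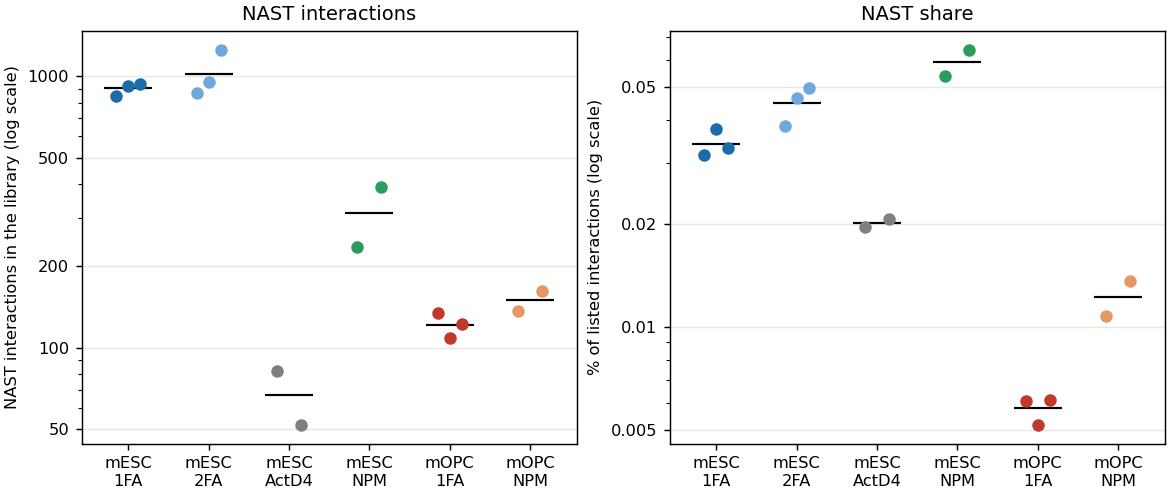
NAST interactions per library (left, log scale) and NAST interactions as % of all listed interactions of the library (right, log scale) in the 6 groups. Points are libraries and lines are group means. The mESC 1FA libraries sit at 848 to 939 interactions, above the 109 to 134 of mOPC 1FA.

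The comparisons of NAST capture were repeated after thinning. After both groups were thinned to the same pooled number of listed interactions, with pairs of at least 5 interactions kept, the mESC 1FA libraries held 656, 736 and 745 NAST interactions beside the 134, 109 and 122 of mOPC 1FA, so the difference between lines remained. Thinned to the size of mESC ActD4, however, mESC 1FA held 12, 7 and 12 NAST interactions, below the 82 and 52 after actinomycin D, and the direction of that comparison turned. Thinned to the size of mESC NPM, mESC 1FA held 35, 31 and 30 beside 235 and 391. The smaller group was left whole each time, and its NAST pairs held at least 7 interactions. The minimum of 5 could thus remove NAST pairs from the thinned group only. Before thinning, the NAST pairs of mESC 1FA held a median of 10 interactions and at most 82. Thinned to the size of mESC ActD4, the mESC 1FA libraries kept 5, 4 and 5 NASTs. The turn thus does not show that NAST capture was higher after actinomycin D. How far this minimum, rather than the number of listed interactions, made the turn was not tested.

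Most NASTs were listed in 1 line only. Of the 242, 199 were listed in mESC groups only, 31 in mOPC groups only and 12 in both. mESC had more groups and libraries than mOPC, and mESC 2FA had no mOPC counterpart. The same split was not taken over all 17784 listed transcripts. These counts therefore do not set NASTs apart from other weakly captured transcripts. The most common pattern was a listing in mESC 2FA alone (74 NASTs), followed by both mESC 1FA and mESC 2FA (47), mESC 1FA alone (27) and these 2 groups with mESC NPM (27). Per group, 121 NASTs were listed in mESC 1FA, 174 in mESC 2FA, 14 in mESC ActD4, 40 in mESC NPM, 27 in mOPC 1FA and 31 in mOPC NPM. The 8 NASTs listed in mOPC 1FA alone and the 16 in mOPC NPM alone show that the label does not restrict a transcript to stem cells in these files.

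NASTs listed in both lines lay beside genes. None of the 12 lacked a gene at its position, against 81 of the 199 listed in stem cells only (40.7%), and 7 of the 12 were downstream of a gene on its strand. These included NAST_639, NAST_1244 and NAST_5084, downstream of the ribosomal protein genes Rps12, Rplp1 and Rpl37. Others followed Kdm5b, which encodes a histone H3K4 demethylase, and Gabbr1, which encodes a GABA-B receptor subunit. The remaining 5 were 4 antisense NASTs and 1 opposite the start of Ier5l. The difference in position between these sets was not tested.

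Transcript by transcript, interactions were compared with limma over all transcripts, and those with an adjusted p under 0.05 were counted as called. In mOPC 1FA against mESC 1FA, 12 of the NASTs passed the filter on low counts, and 11 were lower in mOPC 1FA and none higher. Of all 10007 transcripts tested, 77.9% were called, 35.1% higher and 42.9% lower. All 12 passed the filter through mESC 1FA only, and a NAST listed at 0 in mOPC 1FA then had to differ, so this count supports nothing by itself. The largest of them, NAST_2171, had 51, 60 and 70 interactions in mESC 1FA and was listed at 0 in all mOPC libraries. NAST_3202 had 57, 44 and 47 and NAST_205 had 36, 29 and 42, and both were also listed at 0 in mOPC 1FA. The exception was NAST_639, with 19, 30 and 33 interactions in mESC 1FA and 12, 6 and 21 in mOPC 1FA. Its libraries overlapped, and its log2 difference of -0.36 ± 0.44 (SE) did not pass the test (limma adjusted p = 0.474). Relative to the libraries, its capture thus differed by less than its spread.

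In mOPC NPM against mESC NPM, 12 NASTs passed the filter and all 12 were lower in mOPC NPM. All of them passed through mESC NPM only and were listed at 0 in mOPC NPM, so this count too supports nothing by itself. In this comparison 50.3% of 10980 transcripts were called, 27.4% higher and 22.9% lower. NAST_1456, the largest of them, had 23 and 44 interactions in mESC NPM and was listed at 0 in both mOPC NPM libraries. Conversely, NAST_1923, downstream of Tmem183a, and NAST_5084 were listed at 0 in mESC NPM and had 3 and 5 and, for NAST_5084, 5 and 6 interactions in mOPC NPM, too few to be tested.

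Between the formaldehyde levels no NAST passed the unpaired test, and 1 passed when the libraries were paired. Of 23 NASTs tested in mESC 2FA against mESC 1FA, limma called none, 3 had an unadjusted p under 0.05, and 0.0305% of 9837 transcripts were called (0.0203% higher and 0.0102% lower). With the replicate number as a block, which paired these libraries, 1 of the 23 NASTs was called, beside 4.89% of all transcripts (1.89% higher and 3.0% lower). This was NAST_1181, with 6, 19 and 13 interactions at 1% formaldehyde and 28, 19 and 30 at 2%.

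**Figure D2:**
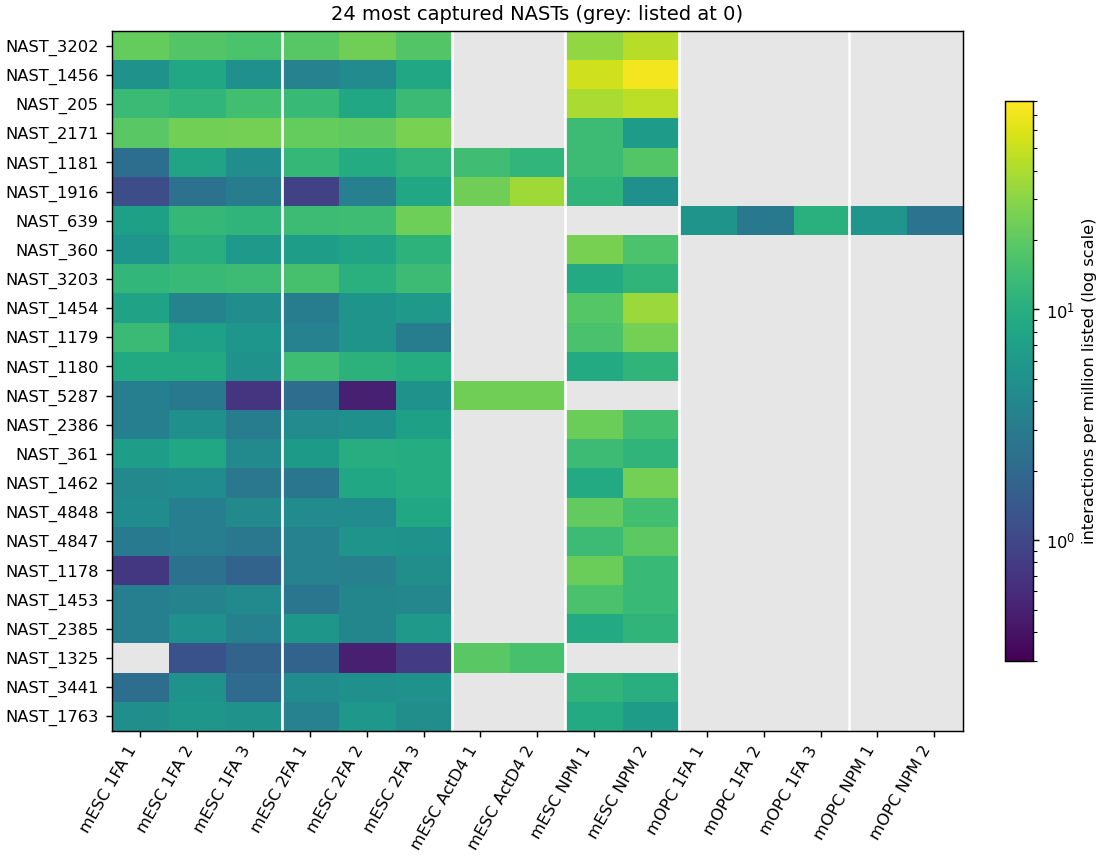
Interactions per 1000000 listed (colour, log scale) of the 24 most captured NASTs (rows) in the 15 libraries (columns), with groups separated by white lines and grey where a NAST was listed at 0. NAST_639 alone among them has values in mOPC libraries, and NAST_1916, NAST_1181, NAST_5287 and NAST_1325 alone have values after actinomycin D.

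The most captured locus held NAST_3202 and NAST_3203 on chromosome 13 (chr13:97497411-97502333, plus strand), downstream of Lncenc1, a long noncoding RNA of embryonic stem cells. NAST_3202 began 904 bases after the annotated end of Lncenc1, and NAST_3203 began 4810 bases after it. The locus had 251 interactions in mESC 1FA, 226 in mESC 2FA and 52 in mESC NPM, and was listed at 0 in mESC ActD4 and in both mOPC groups. NAST_3202 contacted 11 bins in mESC 1FA, up to 294357 bases from its RNA tag.

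A second locus, on chromosome 2 (chr2:71347987-71350839, plus strand), held NAST_2169, NAST_2170 and NAST_2171 inside Slc25a12 and antisense to it. Slc25a12 encodes a mitochondrial carrier of aspartate and glutamate. The locus had 247 interactions in mESC 1FA, 219 in mESC 2FA and 18 in mESC NPM. Of the 346 interactions of NAST_2171, the most captured NAST in number, 217 had their DNA tag in Slc25a12. NAST_2171 reached 11 bins in mESC 1FA, and NAST_2169 reached 2.

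Among the other loci, NAST_1179, NAST_1180 and NAST_1181 on chromosome 9 (chr9:40233651-40238417, minus strand) had 169 interactions in mESC 1FA, 182 in mESC 2FA, 9 in mESC ActD4 and 50 in mESC NPM, with no gene near them by the rules used. NAST_360, NAST_361 and NAST_362 on chromosome 5 (chr5:33533028-33535589, minus strand) had 169, 162, 0 and 34 in the same groups. NAST_205 on chromosome 7 (chr7:107211081-107212089, plus strand) began 669 bases downstream of Rbmxl2 and had 107, 80, 0 and 45. NAST_1456 on chromosome 8 (chr8:43175390-43176372, minus strand) lay 4660 bases from the start of Triml2, on the opposite strand, and had 49, 38, 0 and 67. Unlike the loci above, it had more interactions in mESC NPM than in mESC 1FA.

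NAST contacts were local. No NAST interaction in cis exceeded 460875 bases, and none lay beyond 1 Mb. In mESC 1FA the share within 1 kb was 12.6%, 20.9% and 17.998% (mean 17.2% ± 4.2, SD, n = 3), and in mOPC 1FA 23.1%, 18.3% and 27.0% (22.8% ± 4.4, n = 3). The libraries of the 2 lines overlapped (exact permutation test, two-sided, p = 0.2, adjusted over 16 share comparisons 0.356). The mean of the library medians of cis distance was 8336 bases in mESC 1FA, 4880 in mESC 2FA and 3690 in mOPC 1FA. These medians did not overlap between the lines, at 10583, 7162 and 7264 bases in mESC 1FA and 4571.5, 4328 and 2170.5 in mOPC 1FA. No NAST contact in mOPC 1FA exceeded 67098 bases, while 8.84%, 6.30% and 7.99% of those in mESC 1FA lay at 100 kb to 1 Mb. Neither difference was tested. The NAST's own bin held 59.3% of interactions in mESC 1FA and 84.4% in mOPC 1FA.

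After actinomycin D, the listed contacts were shorter, over a different set of NASTs. In mESC ActD4 14 NASTs were listed, against 121 in mESC 1FA, and NAST_205, NAST_3202 and NAST_2171 were listed at 0. Whether contacts of the same NASTs became shorter was not tested. The share within 1 kb was 39.0% and 44.2% in mESC ActD4 (41.6% ± 3.7, n = 2), a difference of 24.5 percentage points from mESC 1FA, and the groups did not overlap. Annotated long noncoding RNAs captured no more than the NASTs also moved, from a mean of 23.2% in mESC 1FA to 41.3%. The exact permutation test (two-sided) gave p = 0.1, the smallest p this design can give, and 0.2 after adjustment. At equal pooled numbers mESC 1FA kept under 50 NAST interactions per library and gave no share, so whether fewer listed interactions shortened the reach was not tested.

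In the NPM libraries nearly all contacts were within 1 kb. The share was 96.6% and 97.2% in mESC NPM (96.9% ± 0.4, n = 2) and 98.5% and 99.4% in mOPC NPM (99.0% ± 0.6, n = 2). These lay 79.7 and 76.1 percentage points above the 1FA groups of the same line, without overlap (exact permutation test, two-sided, p = 0.1 each, the smallest p possible, 0.2 adjusted). Annotated long noncoding RNAs captured no more than the NASTs had means of 95.8% in mESC NPM and 96.8% in mOPC NPM. Library medians of cis distance averaged 203 bases in mESC NPM and 198 in mOPC NPM. NAST_205 had a median distance of 188514 bases over 10 bins in mESC 1FA and of 185 bases in 1 bin in mESC NPM. The medians of NAST_3202 were 35674 and 207 bases, and those of NAST_2171 were 21319 and 131.

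Contacts also had a side. Along the direction of transcription the DNA tag lay downstream of the RNA tag in 68.1% ± 1.8 of NAST interactions in mESC 1FA (n = 3), 67.3% ± 1.3 in mESC 2FA (n = 3), and for mOPC 1FA the share was 57.5% ± 3.2 (n = 3). After actinomycin D it was 64.6% and 57.7%, beside 66.6% to 70.2% in mESC 1FA. At 1 kb or more, however, it was 76.0% and 69.0% after actinomycin D (72.5% ± 5.0, n = 2) and 71.8% ± 1.7 in mESC 1FA (n = 3), which overlapped. In the NPM libraries the tags turned almost wholly upstream. Only 6 of 617 cis interactions in mESC NPM and 5 of 299 in mOPC NPM had the DNA tag downstream. NAST_205 had 90.7% of its interactions downstream in mESC 1FA and none of its 45 in mESC NPM.

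The upstream side in NPM was shared by annotated RNAs. In mESC NPM 2.39% ± 0.71 (n = 2) of the cis interactions of annotated long noncoding RNAs and 2.38% ± 1.10 (n = 2) of those of protein-coding RNAs were downstream, beside 0.951% ± 0.120 for NASTs. Within 1 kb in mESC 1FA, 50.5% ± 3.4 (n = 3) of NAST interactions were downstream, against 29.9% ± 3.8 (n = 3) for long noncoding RNAs and 31.98% ± 3.0 (n = 3) for protein-coding RNAs. At 1 kb or more the long noncoding RNAs captured no more than the NASTs had 66.2% ± 0.92 in mESC 1FA (n = 3), below the 71.8% of NASTs. In mOPC 1FA these long noncoding RNAs had 70.4% ± 0.77 (n = 3) and the NASTs 60.7% ± 4.1 (n = 3), the opposite order. These differences between the classes were not tested.

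**Figure D3:**
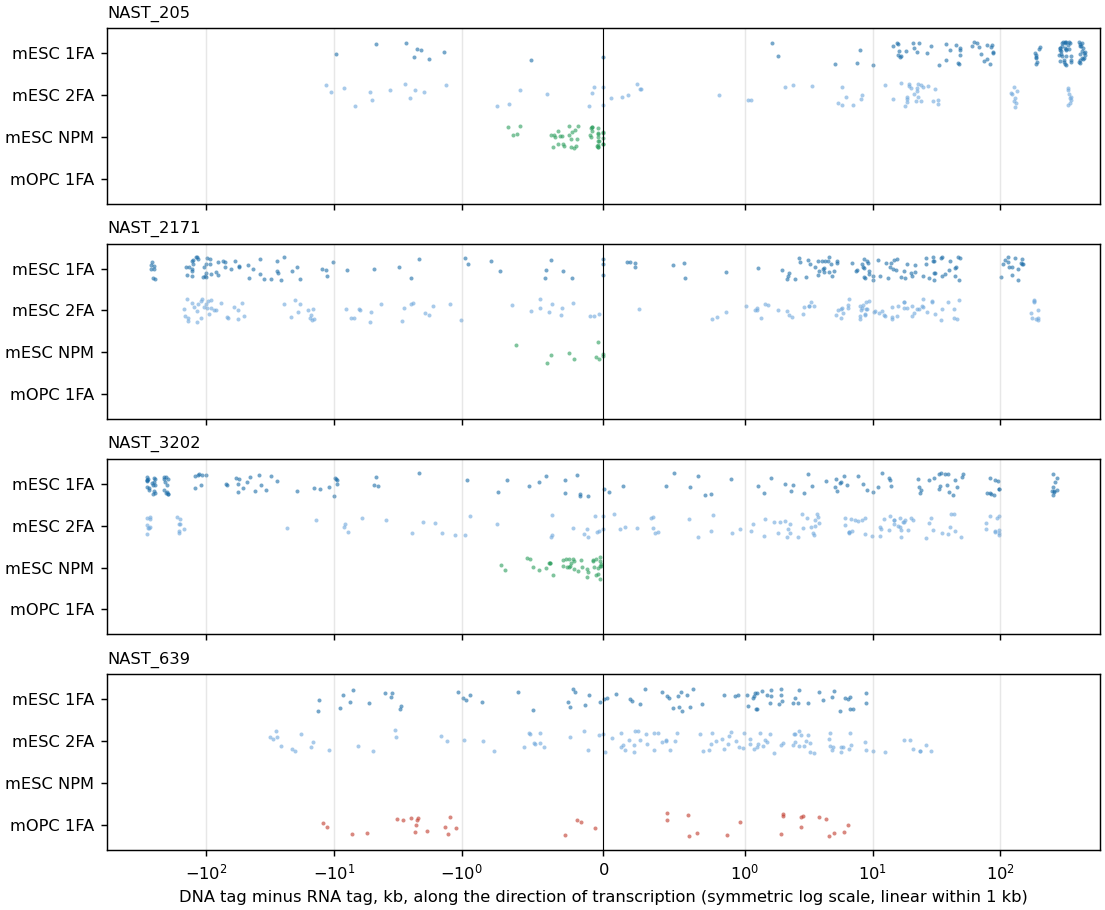
Position of the DNA tag relative to the RNA tag for 4 NASTs (panels), in kb along the direction of transcription on a symmetric log scale that is linear within 1 kb. Each point is an interaction, in rows by group, with replicates pooled and a random vertical offset. In mESC NPM all points lie within 1 kb upstream, and in mESC 1FA those of NAST_205 lie mostly downstream, with a median distance of 188514 bases.

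One NAST alone contacted another chromosome. NAST_1018 on chromosome 14, chosen after its values were seen, lay in Gm6986, a processed pseudogene, and was listed in mESC NPM only, with 4 and 5 interactions. All 9 DNA tags lay in Nasp on chromosome 4, a gene for a histone chaperone, and 8 of them lay in exon 7 of transcript Nasp-201. The genomic stretch around the centres of the RNA tags aligned to a stretch of Nasp without gaps, with 6 mismatches in 95 bases (93.7% identity). Of these bases, 86 lie in exon 9 of the same transcript. Most tag centres lie near the end of this stretch, so the tags can run past it. The 2 stretches are given so that the near identity can be seen, for NAST_1018 (chr14:74297938-74298032, plus strand) and Nasp (chr4:116604900-116604994, minus strand) in GRCm38, with mismatched bases in capitals.
NAST_1018: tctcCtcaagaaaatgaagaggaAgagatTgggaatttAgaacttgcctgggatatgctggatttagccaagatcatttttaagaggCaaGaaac
Nasp: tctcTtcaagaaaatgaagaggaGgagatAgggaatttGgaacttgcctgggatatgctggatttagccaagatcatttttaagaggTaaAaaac
With copies this alike, the assignment of these 9 interactions to NAST_1018 is uncertain.

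NASTs were compared with annotated long noncoding RNAs, the class most like them. Over the 15 libraries the trans share of NASTs was lower by a mean of 37.5 percentage points (difference -37.5 ± 21.5, SD), lower in 15 of 15. The share within 1 kb was higher by 18.8 ± 9.2 points in 15 of 15, and the share in cis beyond 1 Mb differed by -6.73 ± 4.87 points, lower in 15 of 15. Each gave p = 6.104e-05 in an exact sign-flip permutation test (two-sided), the smallest p possible, and 7.629e-05 adjusted over 5 shares. The 15 libraries come from 6 groups, and replicates of a group share 1 list of pairs. The test counts them as independent, so its p-values here and below overstate the evidence. The long noncoding RNAs, however, hold Malat1, an abundant nuclear speckle RNA with 1128559 interactions, while the most captured NAST had 346.

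Against long noncoding RNAs captured no more than the NASTs, the mean differences in reach over all libraries were smaller. In each group these were the annotated transcripts with at most as many pooled interactions as its most captured NAST, from 195 transcripts in mESC ActD4 to 1392 in mESC 2FA. The trans share then differed by 0.014 ± 0.559 points over 15 libraries (exact sign-flip permutation test, two-sided, p = 0.922) and the share within 1 kb by -1.64 ± 4.55 points (p = 0.184). Beyond 1 Mb the NASTs were at 0 in every library and these long noncoding RNAs at 0% to 0.242%, a mean difference of -0.059 ± 0.068 points (p = 0.000977 in the same exact test, adjusted over 5 shares 0.00488). With NASTs at 0 this difference could not be positive, and the share is low for these numbers of interactions. The share of tags in any repeat was higher in NASTs by a mean of 4.24 ± 7.18 points, in 10 of 15 libraries (p = 0.0177 in the same exact test, adjusted 0.0443). By group it was 4.97 points in mESC 1FA, 4.16 in mESC 2FA, 20.4 in mESC ActD4 and 0.79 in mESC NPM. In mOPC 1FA it was -1.48 and in mOPC NPM -0.83. Taken as a median over transcripts, the difference in repeats turned negative. Replicates that share 1 list of pairs count as independent in these tests, so a pass is weak evidence. The comparison at like capture was chosen after the first was seen. The trans share was lower in 11 of 15 libraries and higher only in the 2 mESC NPM libraries, by a mean of 1.30 points, which rest on the 9 interactions of NAST_1018. Within 1 kb NASTs were higher in 7 libraries and lower in 8, among them all 3 of mESC 1FA, with a mean of -6.05 ± 1.97 points. At 1 to 10 kb in mOPC 1FA the NASTs had 55.5% ± 2.2 (n = 3) and these long noncoding RNAs 39.6% ± 4.4 (n = 3), and at 10 to 100 kb 21.7% ± 4.6 and 33.5% ± 2.8. The libraries did not overlap at either distance, and these differences were not tested.

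**Figure D4:**
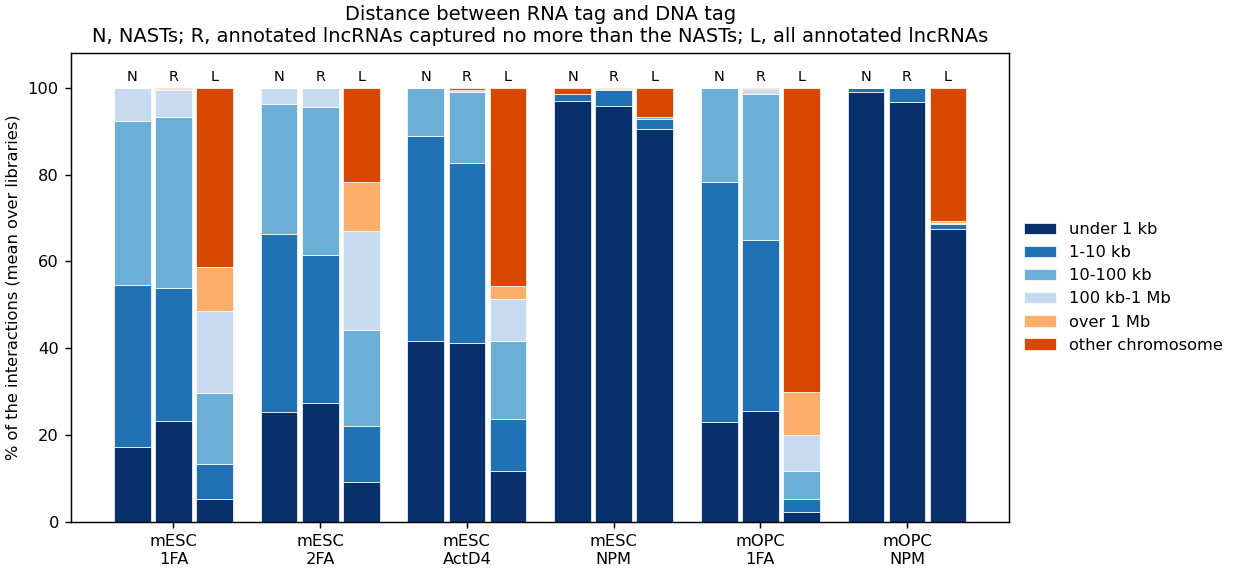
Mean over libraries of the % of interactions by distance between RNA and DNA tag in the 6 groups, for NASTs (N), annotated long noncoding RNAs captured no more than the NASTs (R) and all annotated long noncoding RNAs (L). The L bars have a large share on other chromosomes outside mESC NPM, which N and R bars lack. In mOPC 1FA the N bar has 55.5% at 1 to 10 kb and the R bar 39.6%.

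LTR repeats held a larger part of the RNA tags of NASTs in stem cells than in Oli-neu. Of all NAST interactions, 622 (8.64%) had an RNA tag in an LTR on the same strand, 286 in a SINE and 119 in a LINE. LTR tags came from 58 NASTs, of which 21 had mostly LTR tags and 5 had LTR tags alone, while 118 of the 242 had no repeat tag. Of the 622, 300 (48.2%) fell in ERVL-MaLR elements, 298 (47.9%) in ERVK, 22 in ERVL and 2 in ERV1. The most frequent elements were ORR1D2 (105 interactions), RLTR16C-MM (96), RLTR17 (70, from 9 NASTs), ORR1A2-int (61) and MLT1A0 (60).

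The LTR share was 8.84%, 9.46% and 7.99% in mESC 1FA (mean 8.76% ± 0.74, n = 3) and 9.93%, 10.1% and 10.3% in mESC 2FA (10.1% ± 0.2, n = 3). In mOPC 1FA it was 0%, 0.917% and 0.820% (0.579% ± 0.504, n = 3), a difference of -8.18 percentage points from mESC 1FA without overlap. The exact permutation test (two-sided) gave p = 0.1, the smallest p possible, and 0.2 adjusted over 16. Only 2 of the 365 NAST interactions of mOPC 1FA had an LTR tag. NAST_2170, NAST_1180 and NAST_2169, the 3 NASTs with the most LTR tags, gave 61, 60 and 59 over all libraries. All 3 were listed at 0 in both mOPC groups. They were chosen by LTR tags, of which mOPC 1FA held 2 and mOPC NPM 6, so this listing supports nothing by itself.

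Compared at like capture, the LTR share had a line-dependent sign. It was higher in NASTs than in long noncoding RNAs captured no more than them in all 10 mESC libraries and lower in all 5 mOPC libraries. The mean difference was 4.80 points in mESC 1FA, 6.15 in mESC 2FA, 23.98 in mESC ActD4 and 1.02 in mESC NPM, and -2.97 in mOPC 1FA and -1.88 in mOPC NPM. Over the 15 libraries it was 4.68 ± 8.70 points (exact sign-flip permutation test, two-sided, p = 0.0346, adjusted over 5 shares 0.0577), which did not pass after adjustment. In these long noncoding RNAs the share stayed between 3.55% and 3.97% as a mean of every group, while that of the NASTs ranged from 0.579% to 27.6%. Whether the difference depends on the line was not tested by itself. Against all long noncoding RNAs the LTR share was higher in 14 of 15 libraries, by 6.97 ± 8.55 points (p = 0.000488 in the same exact test). Both p-values count replicates that share 1 list of pairs as independent. Taken as a median over transcripts the difference turned to -0.56 points, and the cause was not tested.

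**Figure D5:**
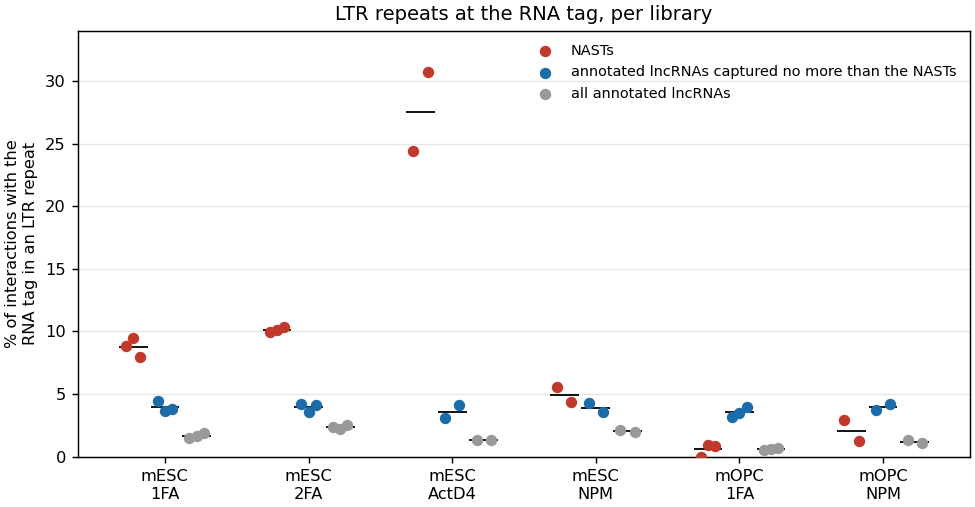
Percentage of interactions whose RNA tag overlaps an LTR repeat in each library (points) with group means (lines), for NASTs, annotated long noncoding RNAs captured no more than the NASTs and all annotated long noncoding RNAs. NASTs lie above both other classes in the 10 mESC libraries and below the long noncoding RNAs of like capture in the 5 mOPC libraries.

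After actinomycin D the LTR share was 24.4% and 30.8% (27.6% ± 4.5, n = 2), 18.8 points above mESC 1FA without overlap (exact permutation test, two-sided, p = 0.1, the smallest p possible, 0.2 adjusted). The 36 LTR interactions came from 5 NASTs. NAST_5287, antisense in Brd1, a subunit of histone acetyltransferase complexes, gave 10 and 6 of them. Without it, the LTR share was 10 of 72 (13.9%) and 10 of 46 interactions (21.7%), the latter below the minimum of 50, beside 7.79% to 8.76% in mESC 1FA.

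Of the 242 NASTs, 28 could be tested after actinomycin D, of which 8 were called higher and 19 lower. Without mESC 1FA replicate 1, 2 or 3, fewer NASTs passed the filter (11, 12 and 13). The higher and lower counts were then 5 and 5, 7 and 5, and 4 and 8, beside 4530 of 9193, 4292 of 9161 and 4069 of 9140 transcripts called. How far the changed set moved these counts was not tested. With all libraries kept, 62.1% of all 10235 transcripts were called, 21.4% higher and 40.6% lower. All 19 that were lower were listed at 0 in mESC ActD4 and passed the filter through mESC 1FA only. Of the 8 that were higher, 7 passed through mESC ActD4 only, where 2 interactions per library sufficed against 10 to 12 in mESC 1FA, so that neither count supports anything by itself. NAST_1181 alone passed through either group. At equal pooled numbers no NAST could be tested. NAST_1916, with an RLTR12D element, had 3, 6 and 9 interactions in mESC 1FA and 10 and 9 in mESC ActD4, although the latter libraries were much smaller. Its log2 difference was 3.45 ± 0.45 (SE, limma adjusted p = 0.00046). NAST_1181 had 6, 19 and 13 and then 6 and 3, a log2 difference of 1.34 ± 0.49 (limma adjusted p = 0.0463). NAST_5287 had 9, 7 and 2 and then 10 and 6, a difference of 3.23 ± 0.57 (adjusted p = 0.00207). These differences are relative to all listed interactions, and those of NAST_1916 and NAST_5287 are given as a description, since both passed through mESC ActD4 only. NAST_2171, NAST_3202, NAST_205 and NAST_639 were listed at 0 in both mESC ActD4 libraries.

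In mESC NPM against mESC 1FA, 35 NASTs could be tested, 14 of which were higher and 8 lower, and 53.2% of all 11410 transcripts were called, 24.8% higher and 28.4% lower. Scaled by total, which moved the median of all transcripts from 0.03 to 0.70 on the log2 scale, 24 NASTs were higher and 7 lower, where 59.9% of all transcripts were called, 48.8% higher and 11.2% lower. Without mESC 1FA replicate 1, 2 or 3, fewer NASTs passed the filter (28, 27 and 28), with 12 higher and 3 lower, 14 and 2, and 12 and 3. In those fits 4927 of 10688, 4790 of 10628 and 4604 of 10672 transcripts were called. Without a mESC NPM library the filter asked for 1 library only, and no count is given. The NASTs tested thus changed with the library left out, and how far this moved the balance was not tested. With all libraries kept, 10 of the 14 higher NASTs passed the filter through mESC NPM only, and 6 of the 8 lower ones through mESC 1FA only. NAST_1456 rose from 14, 21 and 14 interactions to 23 and 44 (log2 difference 2.63 ± 0.35, limma adjusted p = 0.000209). NAST_1454, antisense to the pseudogene Gm6284, had 20, 9 and 13 and then 8 and 21 (1.60 ± 0.45, adjusted p = 0.0129), and NAST_205 had 36, 29 and 42 and then 17 and 28 (0.98 ± 0.28, adjusted p = 0.0129). NAST_205 thus had fewer interactions but a larger part of the fewer ones listed. NAST_2171 fell by 1.87 on the log2 scale (51, 60 and 70, then 6 and 4, adjusted p = 0.00164) and NAST_3203 by 0.97 (32, 32 and 39, then 4 and 7, adjusted p = 0.0319). NAST_639 and NAST_2170 were listed at 0 in both mESC NPM libraries. NAST_3202, with 57, 44 and 47 and then 14 and 27, did not pass the test (0.35 ± 0.28, adjusted p = 0.304).

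Nearly all NAST contacts in mESC NPM were short. Only 10 of the 617 in cis lay at 1 kb or more, and all 45 interactions of NAST_205 lay within 1 kb. With interactions under 1 kb left out of all libraries, most NASTs were thus at 0 in mESC NPM, which fixed the direction of their calls, and NAST_1454 had a log2 difference of -0.89. In mOPC NPM against mOPC 1FA only 3 NASTs could be tested, and 1 was lower (56.1% of 11586 transcripts were called, 32.3% higher and 23.8% lower). This was NAST_1923, with 26, 16 and 8 interactions in mOPC 1FA, against 3 and 5 after protein digestion (fell by 1.84 on the log2 scale, limma adjusted p = 0.027), a call lost with scaling by total and without either mOPC NPM library. It passed the filter through mOPC 1FA only, where it is high, and its value is given as a description.

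The LTR share in NPM moved in opposite directions in the lines, and the difference between lines was not tested. The mESC NPM libraries had 5.53% and 4.35%, on average -3.82 points from mESC 1FA, and those of mOPC NPM had 2.92% and 1.23%, 1.498 points above mOPC 1FA. Neither overlapped with its 1FA group (exact permutation test, two-sided, p = 0.1 each, the smallest p possible, 0.2 adjusted). The mOPC NPM share rests on 6 interactions, and its difference from mOPC 1FA was 0.656 points without mOPC NPM replicate 1 and 2.34 points without replicate 2.

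The RNAs of 38 genes that silence LTRs or maintain pluripotency were followed beside the NASTs. In mOPC 1FA against mESC 1FA, 35 were tested, 29 of which were lower and 3 higher, beside 42.9% and 35.1% of all transcripts, with a median log2 difference of -2.01 beside -0.20 over all transcripts. Of the pluripotency factors, Esrrb fell from 4585 interactions per library to a listing at 0, and Tfcp2l1, Zfp42, Sall4, Nanog and Pou5f1 were likewise listed at 0 in mOPC 1FA. A gene at 0 there could pass the filter through mESC 1FA only and then had to be lower. The count of lower genes and the median of the list rest in part on such genes and support nothing by themselves. Among silencing genes, Trim28, the corepressor that zinc finger proteins bring to LTRs, fell by 2.82 ± 0.27 (SE, limma adjusted p = 2.68e-05). Setdb1, a histone H3K9 methyltransferase, fell by 1.57 ± 0.19 (adjusted p = 0.000107) and Dnmt1, the maintenance DNA methyltransferase, by 1.33 ± 0.13 (adjusted p = 2.58e-05). Dnmt3a, a de novo DNA methyltransferase, rose by 1.78 ± 0.10 (adjusted p = 6.73e-07). The small rises of Cbx3 (0.51) and Morc2a (0.52) were lost when libraries were scaled by total (0.0024 and 0.016).

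After actinomycin D 36 of these genes were tested, 5 higher and 13 lower (8 and 11 with scaling by total), where 21.4% of all transcripts were higher and 40.6% lower. Setdb1 fell by 1.83 ± 0.23 (limma adjusted p = 0.000407), while Trim28 rose by 1.05 ± 0.20 (adjusted p = 0.00318) and Dnmt1 by 0.73 ± 0.12 (adjusted p = 0.00178). In mESC NPM 38 were tested, 10 higher and 13 lower (19 and 2 with scaling by total), where 24.8% of all were higher and 28.4% lower. At 2% formaldehyde none of 36 was called in the unpaired test, where 0.0305% of all transcripts were called, and no paired count is given for this list. In mOPC NPM against mESC NPM 37 were tested, 2 higher and 24 lower (2 and 26 with scaling by total), where 27.4% of all were higher and 22.9% lower. In mOPC NPM against mOPC 1FA 28 were tested, 12 higher and 4 lower (22 and 0 with scaling by total), where 32.3% of all were higher and 23.8% lower.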

How the data were processed

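RADICL-seq was performed on 15 libraries in 6 groups, taken from the sample labels. Per the labels and the study's methods, reads were processed with CASAVA 1.8 and BWA 0.7.15-r1140 on mm10, and transcript-by-bin pairs (25-kb bins) were tested on pooled replicates. In the deposited tables an interaction of a pair that passed fills 1 or more lines. A line holds the tag positions, the transcript and its biotype, the repeat at the RNA tag and the gene at the DNA tag. It also holds the p-values and adjusted p-values that the authors computed per pair. Lines with the same RNA tag, DNA tag, transcript and bin were merged into 1 interaction. In mESC 1FA replicate 1, 2841875 lines gave 2667971 interactions. The p-value columns were not used. Totals are listed interactions, not sequencing depth.

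Interactions were counted per transcript and library. TMM factors were computed here, and log2 CPM (prior count 0.5) of transcripts were compared with limma 3.58.1 (limma-trend, R 4.3.3), keeping those with 15 interactions in all and, in as many libraries as the smaller group holds, a level equal to 10 interactions at the median library total, with Benjamini-Hochberg adjustment over all transcripts and calls at 0.05. Replicate number entered only an alternative fit, as a block. Deviations from group means were correlated between same-numbered mESC 1FA and mESC 2FA libraries (0.355, 0.186 and 0.323), so these were taken as paired, and no other comparison was. On simulated counts for mOPC 1FA against mESC 1FA (9684 transcripts), 50% of changes of 1 and 99% of changes of 2 on the log2 scale were recovered, and after actinomycin D (9631 transcripts) 3% and 46%. Shares per library were compared with exact permutation tests (two-sided, on the absolute difference) where libraries held at least 50 NAST interactions. Gene positions were taken from GENCODE M21, while the authors annotated transcripts with M14, and sequences from GRCm38, read with pysam 0.24.0 under Python 3.11.15. Of 17542 gene identifiers, 17501 matched a symbol.

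The NASTs named are the 10 with the most interactions relative to the listed total, summed over groups, called NASTs with a mean of at least 50 interactions, the 3 that contacted most bins in mESC 1FA and in mOPC 1FA, and the 3 with most LTR tags. Members and lists were chosen with earlier results of these data known. Alternatives were scaling by total, no filter, other prior counts, pairs counted once, contacts within 1 kb left out, all groups in 1 fit, a replicate block, thinning and leaving out each library.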

Additional observations from a re-analysis of the deposited data

Results flagged for a closer look

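The LTR share of NAST interactions moved in opposite directions between NPM and 1FA in the lines. Every mESC NPM library lay below every mESC 1FA library, with a mean difference of -3.82 percentage points, and every mOPC NPM library lay above every mOPC 1FA library, with a mean difference of 1.498 points. The difference between the lines was not tested. Without mOPC NPM replicate 1 or 2 the mOPC difference was 0.656 or 2.34 points. The mOPC values rest on 6 LTR interactions in mOPC NPM and 2 in mOPC 1FA.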

How the results depend on the processing

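The number of NASTs called depended most on the filter. Without it, 116 were called between the lines, 70 between the lines in NPM, 114 after actinomycin D, 104 in mESC NPM, 28 in mOPC NPM and 87 at 2% formaldehyde, where 75.9%, 58.5%, 71.7%, 60.6%, 60.2% and 13.5% of all transcripts tested were called. With each pair counted once, only 1 NAST was tested after actinomycin D and 1 in mESC NPM, and each was called. There 5644 of 6030 and 6221 of 6568 transcripts were called. Thinned to equal numbers, a choice made after seeing the data, 3 of 3 tested were called between the lines in NPM and 1 of 1 in mESC NPM. There 4556 of 9006 and 2006 of 5040 transcripts were called. In mOPC NPM, 0 of 3 were called with scaling by total and 2 of 3 with all groups in 1 fit, beside 8022 and 6727 of 11586 transcripts. The replicate block gave 1 call at 2% formaldehyde and moved no other count by over 1.5 times. Leaving out 1 library at a time gave 13 to 19 calls between the lines (18, 18 and 19 without mOPC 1FA replicates 1, 2 and 3), 2 to 11 between the lines in NPM (7 and 2 without mESC NPM replicates 1 and 2), 10 to 38 after actinomycin D (5 higher and 5 lower, 7 and 5, and 4 and 8 without mESC 1FA replicates 1, 2 and 3, that is 10, 12 and 12, and 3 and 32 or 6 and 32 without mESC ActD4 replicates 1 or 2), 15 to 28 in mESC NPM (13 higher and 15 lower or 9 and 16 without mESC NPM replicates 1 or 2, and 12 and 3, 14 and 2, and 12 and 3 without mESC 1FA replicates 1, 2 and 3), and 0 to 1 in mOPC NPM (0 without either mOPC NPM library). The causes were not tested.

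Against long noncoding RNAs of like capture, the difference turned to 0.014 points for the trans share and -1.64 within 1 kb. As medians over transcripts it was 0 for the trans share, 2.97 within 1 kb, 0 beyond 1 Mb, -3.61 for repeats and -0.56 for LTRs. With pairs counted once, NASTs made up 0.0755% in mESC 1FA, 0.101% in mESC 2FA, 0.0365% in mESC ActD4, 0.131% in mESC NPM, 0.0136% in mOPC 1FA and 0.0691% in mOPC NPM. Without contacts within 1 kb the shares were 0.0296%, 0.0356%, 0.0137%, 0.0124%, 0.0047% and 0.000962% in the same order. Thinned, mESC 1FA had 0.00907% beside mESC ActD4 and 0.0148% beside mESC NPM, mOPC 1FA had 0.00362% beside mOPC NPM, and mOPC NPM had 0.00775% beside mESC NPM.

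NAST_639 had a log2 difference between the lines of 0.036 without contacts within 1 kb and from -0.78 to 0.054 with 1 library left out (0.054 without mOPC 1FA replicate 2). In mESC NPM without contacts within 1 kb, NAST_1454 turned to -0.89, NAST_205 to -5.45 and NAST_3202 to -5.71 (the last 2 had no other contacts there, so the setting fixed their turn and these values depend on the prior count), and NAST_3202 was at -0.31 with pairs counted once. The share comparisons could not pass the threshold under any setting, so their side of it says nothing about stability. No NAST was left to test with pairs counted once in the other 4 comparisons, without contacts within 1 kb between the lines in NPM, when thinned for actinomycin D and mOPC NPM, and without mOPC 1FA replicate 1 or 2 in mOPC NPM. Few listed interactions limit the mESC ActD4 and NPM groups.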
